A study of Mus musculus and Homo sapiens with 65 samples.

Results

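The comparison of 2 RNA-seq libraries from late 2-cell mouse embryos treated with alpha-amanitin with 3 libraries from wild-type embryos of the same stage is described here across the whole transcriptome. These are 5 of the 65 samples of the series and 5 of its 9 libraries with a table of expression levels. The members are the genes at 1 FPKM or more in at least 2 of these 5 libraries, FPKM being a level scaled to transcript length and to the size of the library. Of 32287 genes in the files 11523 met that rule, and 11522 were tested, since 1 had no valid value in any wild-type library. The series as a whole concerns methylation of lysine 4 of histone H3 in mouse oocytes and the passage from maternal to zygotic control. The labels call 1 group wild-type (WT) embryos, with no treatment named, and the other alpha-amanitin treated embryos, and the growth protocol has embryos cultured to the late 2-cell stage. Strain, dose, time of exposure and route of alpha-amanitin remain not given in the sources used here. A further 4 libraries, set beside the result at the end, came from 2-cell embryos injected as zygotes at 0.5 days after conception, 2 with morpholinos against Kdm5a and Kdm5b and 2 with mismatch control morpholinos. No label tells if the replicates were collected separately, and p-values then reflect just the spread between these 5 libraries, perhaps a technical one.

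Alpha-amanitin is a mushroom toxin that binds RNA polymerase II and blocks it. A mouse embryo starts with RNA and protein stored in the egg. Its own genome is first transcribed broadly during the 2-cell stage, while stored transcripts are degraded, so RNA found in an embryo whose polymerase was blocked before that point is largely what the egg supplied. The levels are shares of each library's total. A transcript that merely persists while others are missing can therefore gain in FPKM, and in whole embryos fewer cells of a type and less RNA per cell cannot be told apart.

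The 5 libraries separated by treatment. Wild-type libraries held 10757 to 10950 genes at 1 FPKM or more, and the alpha-amanitin libraries 7977 and 7935. The 100 most abundant genes took 19.7% to 25.0% of the summed FPKM in wild type and 32.6% and 33.4% with alpha-amanitin. Read depth is unknown, and the deposited confidence bounds had a median width on either side of 18.9% to 19.5% of the FPKM in wild type and 22.0% and 25.0% with alpha-amanitin. Markers of 2-cell embryos, such as the Zscan4 genes, summed to 270, 295 and 373 FPKM in wild type but to 17.1 and 18.6 FPKM in the treated libraries. Those of the oocyte summed to 492 to 617 FPKM in wild type, against 961 and 1031 FPKM in the treated libraries. Most of that sum came from Bmp15 and Oosp1. Bmp15 had 229, 154 and 219 FPKM in wild type and 463 and 487 FPKM in the treated libraries. Gdf9 overlapped, with 75.7, 52.1 and 63.5 FPKM against 58.8 and 106 FPKM. Of 8 tested oocyte markers 1 was called higher and 0 lower. Lists for blastocyst, cumulus, sperm, blood and oviduct cells reached at most 7.63 FPKM in any library.

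By limma at an adjusted p under 0.05, 2931 genes were lower with alpha-amanitin, 25.4% of those tested, and 428 were higher, 3.71% of those tested, together 29.2%. The ranges of the groups did not overlap in any of the 3359, and this was common with so few libraries, since over all tested genes 4921 lay lower and 1684 higher without overlap. There were 4450 genes averaging 10 FPKM or more in wild type. Of these, 290 kept under 1% of that mean, 209 kept 1% to 3% and 518 kept 3% to 10%. 484 of the 4450 (10.9%) lay under 1 FPKM in both alpha-amanitin libraries, and 100 were listed at 0 in both. At the other end 285 genes reached at least 2 times their wild-type mean, 169 of them called. The reverse case was rare. Among 2907 genes averaging at least 10 FPKM with alpha-amanitin, 3 stayed below 1 FPKM in every wild-type library.

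**Figure D1:**
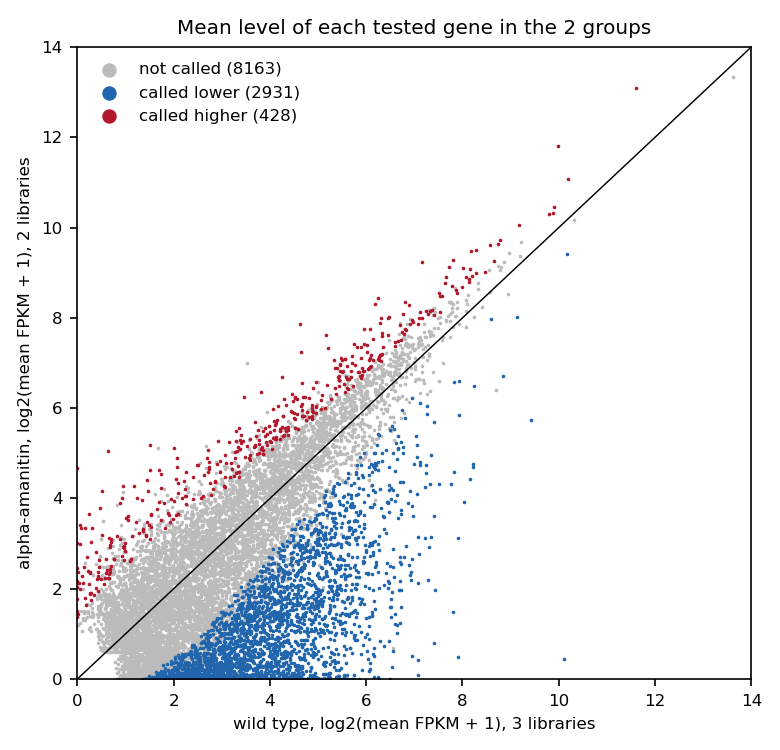
Mean FPKM of each of the 11522 tested genes in the 3 wild-type libraries (horizontal axis) and the 2 alpha-amanitin libraries (vertical axis), both as log2(mean FPKM + 1), with genes called lower in blue, genes called higher in red and the line of equal levels in black. The 2931 lower genes fill a wide field that reaches 0 on the vertical axis, while the 428 higher genes lie above the line, some of them far above it.

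The genes called lower held 28.1%, 33.9% and 31.4% of the summed FPKM in the wild-type libraries and 4.81% and 4.48% in the alpha-amanitin libraries. Those called higher went from 12.7%, 10.9% and 11.1% to 28.9% and 29.1%. The 8163 genes not called held the largest part of every library, from 53.8% to 57.8% in wild type and 65.2% and 65.1% with alpha-amanitin. The direction varied with level on this scale. Of genes with a mean of 10 to 30 FPKM over the 5 libraries 36.7% were lower and 4.13% higher, and of those at 100 FPKM or more 10.7% were lower and 26.8% higher. The medians of those bands were -0.60 and 0.44, and after quantile normalization they were 0.07 and 0.15.

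**Figure D2:**
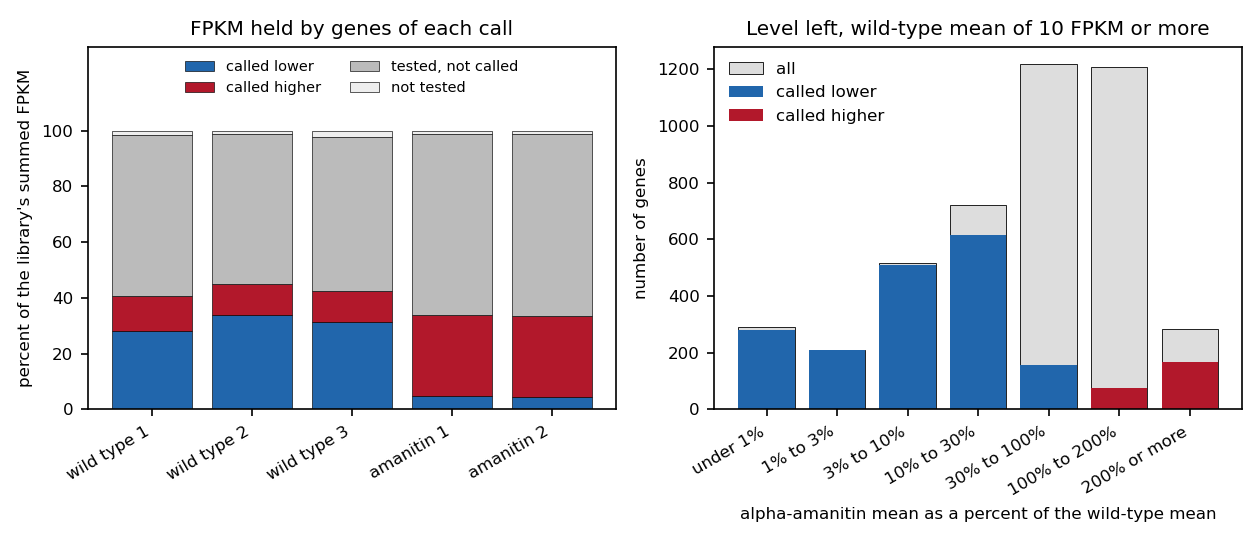
Left, percent of each library's summed FPKM held by genes called lower, called higher, tested but not called, and not tested. Right, number of genes averaging at least 10 FPKM in wild type by the alpha-amanitin mean as a percent of the wild-type mean, with the called genes coloured. The 3 bars under 10% hold 290, 209 and 518 genes.

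The scale bears on how these numbers read. The median log2 change over all tested genes, on log2(FPKM + 1), was -0.62, and 87.3% of calls were lower. Quantile normalization, which gives all libraries the same distribution of values, moved that median to 0.20 and the lower share of calls to 53.5% (1388 lower, 1205 higher). Of the 2931 lower genes 1381 (47.1%) were lower on that scale too, and of the 428 higher genes 364 (85.0%) were higher. All list medians below are therefore read against the -0.62 of all genes. Leaving out 1 library changed the counts as well. Without alpha-amanitin replicate 2 there were 1721 lower and 108 higher genes, and without replicate 1 of that group 1843 and 178. Without wild-type replicate 1, 2 or 3 the lower counts were 2432, 2316 and 2003 and the higher counts 263, 283 and 179. Each gene given below with its values as fallen or risen was called in the same direction in all 5 fits that left out 1 library, unless a smaller number is stated. Values of a gene are listed in the order wild-type replicates 1, 2 and 3, then alpha-amanitin replicates 1 and 2.

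Among the most deeply lowered genes outside the ribosomal, 2-cell and oocyte lists were several without a common role. Folr1, the folate receptor at chr7:101858331-101870788, had 50.2, 39.2 and 64.8 FPKM in the wild-type libraries, and both treated libraries list it at 0 (limma adjusted p = 0.000305). Cggbp1, a protein that binds CGG repeats, fell from 52.9, 52.2 and 53.7 FPKM to 0.0585 and 0.0781 FPKM (log2 change -5.66, SE 0.37, limma adjusted p = 0.000295). Psmb4, a subunit of the proteasome core, fell from 65.5, 76.2 and 103 FPKM to 1.33 FPKM in 1 treated library and a listed 0 in the other (log2 change -5.73, SE 0.46, limma adjusted p = 0.000347). In each of the 3 genes both treated libraries lay far below every wild-type library. The 4 libraries of injected embryos stood at 29.6 to 52.2 FPKM in Folr1, 41.3 to 70.6 FPKM in Cggbp1 and 39.9 to 66.1 FPKM in Psmb4. Kdm5a and Kdm5b, which encode the demethylases of lysine 4 of histone H3 that the morpholinos of this series address, were also lower. Kdm5a fell from 17.1, 13.6 and 11.2 FPKM to 0.228 FPKM in 1 treated library and a listed 0 in the other (log2 change -3.74, SE 0.47, limma adjusted p = 0.0013), and Kdm5b fell from 34.8, 54 and 65.7 FPKM to 0.575 and 4.16 FPKM (log2 change -4.16, SE 0.56, limma adjusted p = 0.00169).

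Promoter sequence differed modestly between the classes. Of 15675 protein-coding promoters in RefSeq (GRCm38.p6, 250 bases before to 50 after the start), CCGGAAG, the core of binding sites of ETS-family factors, searched on both strands, was found in 12.6%. It was in 23.5% of the 1964 lower genes with such a promoter, 15.1% of the 291 higher genes and 18.3% of the 5464 tested genes not called. CCAAT stood in 45.7%, 37.5% and 38.8% of the same classes and in 39.1% of all promoters. The other motifs differed less between lower genes and genes not called, with GGGCGG at 67.5% and 66.0%, ATGGCGG at 9.67% and 8.49%, CACGTG at 11.7% and 9.97%, TATAAA at 6.52% and 6.70%, TGACGTCA at 4.07% and 3.33%, GCGCATGCG at 4.12% and 4.36%, and CAAGGTCA at 1.07% and 1.04%. Of all promoters they were in 49.2%, 5.61%, 8.27%, 13%, 2.48%, 2.59% and 1.19%. Matches of GGGCGG and ATGGCGG can overlap. Each match is a string of letters and no measured binding site. Among the 175 lower genes of the extremes and lists that had a promoter, 40 held CCGGAAG in the 250 bases before the start and 7 held it more than once, against 7 and 0 of the 46 higher ones. These genes were picked by size of change, and no share over all promoters was taken for this window. With so few higher genes the counts do not establish a difference. Shown as examples, 3 of the 7 with more than 1 match, are the 250 bases before the start of Alyref (chr11:120598366-120598615, minus strand), which encodes an adaptor of mRNA export, Atg101 (chr15:101284051-101284300, plus strand), part of the kinase complex that starts autophagy, and Kif22 (chr7:127042421-127042670, minus strand), a chromosome-bound kinesin, with CCGGAAG or its complement CTTCCGG in capitals.
Alyref: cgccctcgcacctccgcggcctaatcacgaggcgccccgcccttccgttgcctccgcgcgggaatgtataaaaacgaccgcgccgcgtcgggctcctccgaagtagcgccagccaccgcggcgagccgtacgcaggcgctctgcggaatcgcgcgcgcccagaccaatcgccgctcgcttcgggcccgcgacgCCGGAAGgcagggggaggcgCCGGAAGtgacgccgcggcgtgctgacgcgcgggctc
Atg101: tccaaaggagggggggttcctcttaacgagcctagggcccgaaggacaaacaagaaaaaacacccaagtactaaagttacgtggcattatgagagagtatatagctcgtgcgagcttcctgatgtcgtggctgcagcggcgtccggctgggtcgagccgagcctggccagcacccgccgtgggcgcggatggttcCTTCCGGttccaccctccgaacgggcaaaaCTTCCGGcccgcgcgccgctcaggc
Kif22: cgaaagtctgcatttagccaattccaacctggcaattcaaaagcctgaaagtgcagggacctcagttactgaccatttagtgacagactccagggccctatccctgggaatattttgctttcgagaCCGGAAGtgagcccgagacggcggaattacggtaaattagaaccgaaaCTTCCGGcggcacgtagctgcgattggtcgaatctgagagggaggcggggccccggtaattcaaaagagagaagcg
Each of the 3 holds the motif 2 times. Alyref fell from 16.5, 33.2 and 16.5 FPKM to 0.291 and 0.175 FPKM (log2 change -4.15, SE 0.49, limma adjusted p = 0.00104), Atg101 fell from 18.2, 32.6 and 22 FPKM to 0.125 and 0.322 FPKM (log2 change -4.33, SE 0.46, limma adjusted p = 0.000652), and Kif22 fell from 4.54, 20.5 and 10.7 FPKM to 0.0773 and 0.309 FPKM (log2 change -3.23, SE 0.64, limma adjusted p = 0.00871). The motif is missing from most promoters of lower and of higher genes alike. The 250 bases before the start of Dph6 (chr2:114654965-114655214, minus strand), which encodes an enzyme of diphthamide synthesis and was among the genes that gained most, hold no such match.
Dph6: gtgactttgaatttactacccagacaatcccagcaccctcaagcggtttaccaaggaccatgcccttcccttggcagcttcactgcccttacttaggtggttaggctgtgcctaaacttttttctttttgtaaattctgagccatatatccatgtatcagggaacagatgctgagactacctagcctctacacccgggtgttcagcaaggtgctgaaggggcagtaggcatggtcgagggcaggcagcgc
Dph6 rose from 22.8, 25.1 and 23.6 FPKM to 268 and 194 FPKM (log2 change 3.20, SE 0.26, limma adjusted p = 0.000365).

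The homeobox motif GGATTA, the core bound by OTX, CRX and OBOX factors, did not mark the lower genes as a class. It was found in 6.41% of all promoters, 6.47% of those of lower genes, 7.90% of higher and 5.23% of genes not called. One promoter stood apart. Among tested protein-coding genes with a promoter 7320 had no GGATTA in the 250 bases before the start and 380 had 1, while Zfp352, an intronless zinc finger gene of the 2-cell embryo, had 9 (chr4:90218570-90218819, plus strand), shown with the complement TAATCC in capitals and singled out after its sequence was seen.
Zfp352: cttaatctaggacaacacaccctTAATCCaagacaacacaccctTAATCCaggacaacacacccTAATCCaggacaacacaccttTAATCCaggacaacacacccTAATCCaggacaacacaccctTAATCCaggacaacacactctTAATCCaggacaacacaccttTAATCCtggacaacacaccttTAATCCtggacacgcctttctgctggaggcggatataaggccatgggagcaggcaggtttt
The matches sit in a short repeated unit. Zfp352 itself fell from 92, 79.3 and 99.4 FPKM to 1.77 and 3.05 FPKM (log2 change -4.76, SE 0.34, limma adjusted p = 0.000305).

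Genes for making ribosomes and RNA polymerases had the largest shares of lower members among the 52 lists beyond the reference lists of ribosomal proteins, 2-cell and oocyte genes. Of 73 tested genes of ribosome biogenesis 58 were lower and none higher, with a median log2 change of -2.64. Nop16, a nucleolar protein that serves assembly of the large ribosomal subunit, had 24, 29.1 and 22.8 FPKM in the wild-type libraries. Both treated libraries list it at 0 (limma adjusted p = 0.000438). Rrs1, a regulator of ribosome assembly, fell from 15.9, 46.7 and 34.8 FPKM to 0.665 and 0.177 FPKM (log2 change -4.45, SE 0.54, limma adjusted p = 0.00111). Hosts of small nucleolar RNAs, which carry these guides of ribosomal RNA modification in their introns, followed with 6 of 9 lower and a median of -2.79. Gas5, which overlaps Zbtb37 on the opposite strand at its start, fell from 17.4, 36.1 and 32.7 FPKM to 0.712 and 0.751 FPKM (log2 change -4.04, SE 0.46, limma adjusted p = 0.000888). Of 29 subunits of RNA polymerases I, II and III 20 were lower and none higher, with a median of -2.25, which includes Polr2h, shared by the 3 enzymes, that fell from 24.3, 59.5 and 25.6 FPKM to 0.0809 and 0.107 FPKM (log2 change -4.98, SE 0.51, limma adjusted p = 0.000607). Leaving out any 1 library moved none of these 3 counts by over 1.5 times, the lower members ranging from 41 to 49, 4 to 6 and 14 to 16.

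Most called factors that act on RNA polymerase II were lower, as were 87.3% of all calls, and a Mediator subunit rose. The lower shares were 52.8% for elongation and pausing and 39.7% for Mediator and the general transcription factors, against 25.4% of all genes. Among 36 genes of elongation and promoter-proximal pausing 19 were lower and 1 higher, with a median of -1.37. Paf1, of the PAF complex that travels with the polymerase, fell from 47.8, 87.8 and 60.6 FPKM to 2.84 and 0.318 FPKM (log2 change -4.84, SE 0.53, limma adjusted p = 0.000724). Ccnt1, the cyclin of the elongation kinase P-TEFb, fell from 52.4, 60.9 and 73 FPKM to 1.66 and 4.7 FPKM (log2 change -4.0, SE 0.42, limma adjusted p = 0.000636), and Hexim1, which holds that kinase inactive, fell from 8.6, 27.1 and 19.3 FPKM to 0.262 FPKM in 1 treated library and a listed 0 in the other (log2 change -3.97, SE 0.57, limma adjusted p = 0.00227). Of 63 genes of Mediator and the general transcription factors 25 were lower and 1 higher, with a median of -1.05. The higher member was Med15, of the Mediator tail, which rose from 47.4, 47 and 38.2 FPKM to 109 and 113 FPKM (log2 change 1.31, SE 0.25, limma adjusted p = 0.00697). The count of 25 fell to 13 without wild-type replicate 3 and to 14 without alpha-amanitin replicate 2. Of 54 genes of chromatin remodelers 12 were lower (22.2%, under the 25.4% of all genes) and 2 higher (3.70%, against 3.71% of all genes). Their median of -0.59 became 0.06 after quantile normalization. Hdac1, a histone deacetylase, fell from 26.8, 72 and 38 FPKM to 0.127 and 0.746 FPKM (log2 change -4.94, SE 0.52, limma adjusted p = 0.000636), while Smarca2, an ATPase of the SWI/SNF complex, rose from 253, 166 and 208 FPKM to 409 and 702 FPKM (log2 change 1.38, SE 0.28, limma adjusted p = 0.00905) and was called in 4 of the 5 fits.

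Genes of mRNA processing and export were mostly lower where called, as were 87.3% of all calls. The lower shares were 46.0% for the spliceosome, 44.0% for SR and hnRNP proteins, 42.5% for 3′ end formation and 38.9% for export. Over all genes the share was 25.4%. Of 63 spliceosome genes 29 were lower and none higher (median -1.46), and of 50 SR and hnRNP proteins 22 and none (median -1.43). Syncrip, an RNA-binding hnRNP, fell from 44.1, 67.7 and 72.9 FPKM to 1.56 and 0.255 FPKM (log2 change -5.09, SE 0.45, limma adjusted p = 0.00043). Hnrnpm fell from 31.1, 50.1 and 44 FPKM to 0.288 and 0.295 FPKM (log2 change -5.02, SE 0.41, limma adjusted p = 0.000355). Of 40 genes of mRNA 3′ end formation, a list that also holds poly(A)-binding proteins, 17 were lower and 1 higher (median -1.32). Among the lower ones Pabpc1, the cytoplasmic poly(A)-binding protein, fell from 89.4, 151 and 159 FPKM to 3.18 and 3.53 FPKM (log2 change -4.90, SE 0.35, limma adjusted p = 0.000305). Of 36 genes of mRNA export and the exon junction complex 14 were lower and 1 higher (median -1.04). Nxf1, the main export receptor, fell from 52.6, 60.3 and 76.8 FPKM to 2.11 and 10.5 FPKM (log2 change -3.41, SE 0.54, limma adjusted p = 0.00345). The spliceosome count was 19 without wild-type replicate 3 and 18 without alpha-amanitin replicate 2. That of 3′ end formation was 11 without wild-type replicate 1 or 3 or either alpha-amanitin library, and that of export 8 with the omission of wild-type replicate 3 or of alpha-amanitin replicate 1.

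Translation factors and mRNA decay held genes of both directions. Of 50 initiation and elongation factors 23 were lower and 2 higher, with a median of -1.20, and the lower count was 13 without wild-type replicate 3 and 14 without alpha-amanitin replicate 1. Eif3c, a core subunit of eIF3, fell from 31.4, 36.2 and 28.4 FPKM to 1.12 and 1.23 FPKM (log2 change -3.92, SE 0.38, limma adjusted p = 0.000508). Eif6, which keeps ribosomal subunits apart, fell from 62.4, 158 and 107 FPKM to 8.36 and 2.69 FPKM (log2 change -4.13, SE 0.52, limma adjusted p = 0.00127). Against them, Eif4e1b, a cap-binding protein of the oocyte, rose from 70.9, 74.7 and 85.6 FPKM to 224 and 251 FPKM (log2 change 1.61, SE 0.21, limma adjusted p = 0.00163). Of 59 genes of mRNA decay and deadenylation 17 were lower (28.8%, near the 25.4% of all genes) and 6 higher, with a median of -0.89. The higher ones were 10.2% of the list against 3.71% of all genes. Tob1 and Tob2, which bridge deadenylases to their targets, were lower: Tob1 fell from 75, 98.3 and 89.1 FPKM to 0.589 and 6.17 FPKM (log2 change -4.70, SE 0.59, limma adjusted p = 0.0013), and Tob2 fell from 71.9, 67.3 and 56.4 FPKM to 4.47 and 8.93 FPKM (log2 change -3.16, SE 0.36, limma adjusted p = 0.000888). Dcp1b, a decapping cofactor, rose from 0.00496, 0.0114 and 0.422 FPKM to 4.25 and 6.72 FPKM (log2 change 2.49, SE 0.49, limma adjusted p = 0.008) and was called in 4 of the 5 fits. In that list the lower count was 8 to 11 and the higher count 1 to 4 with any 1 library left out. Of 30 genes of the small RNA pathway 2 were lower and 2 higher, with a median of 0.33, and with any 1 library left out 0 to 3 were lower and 0 or 1 higher.

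**Figure D3:**
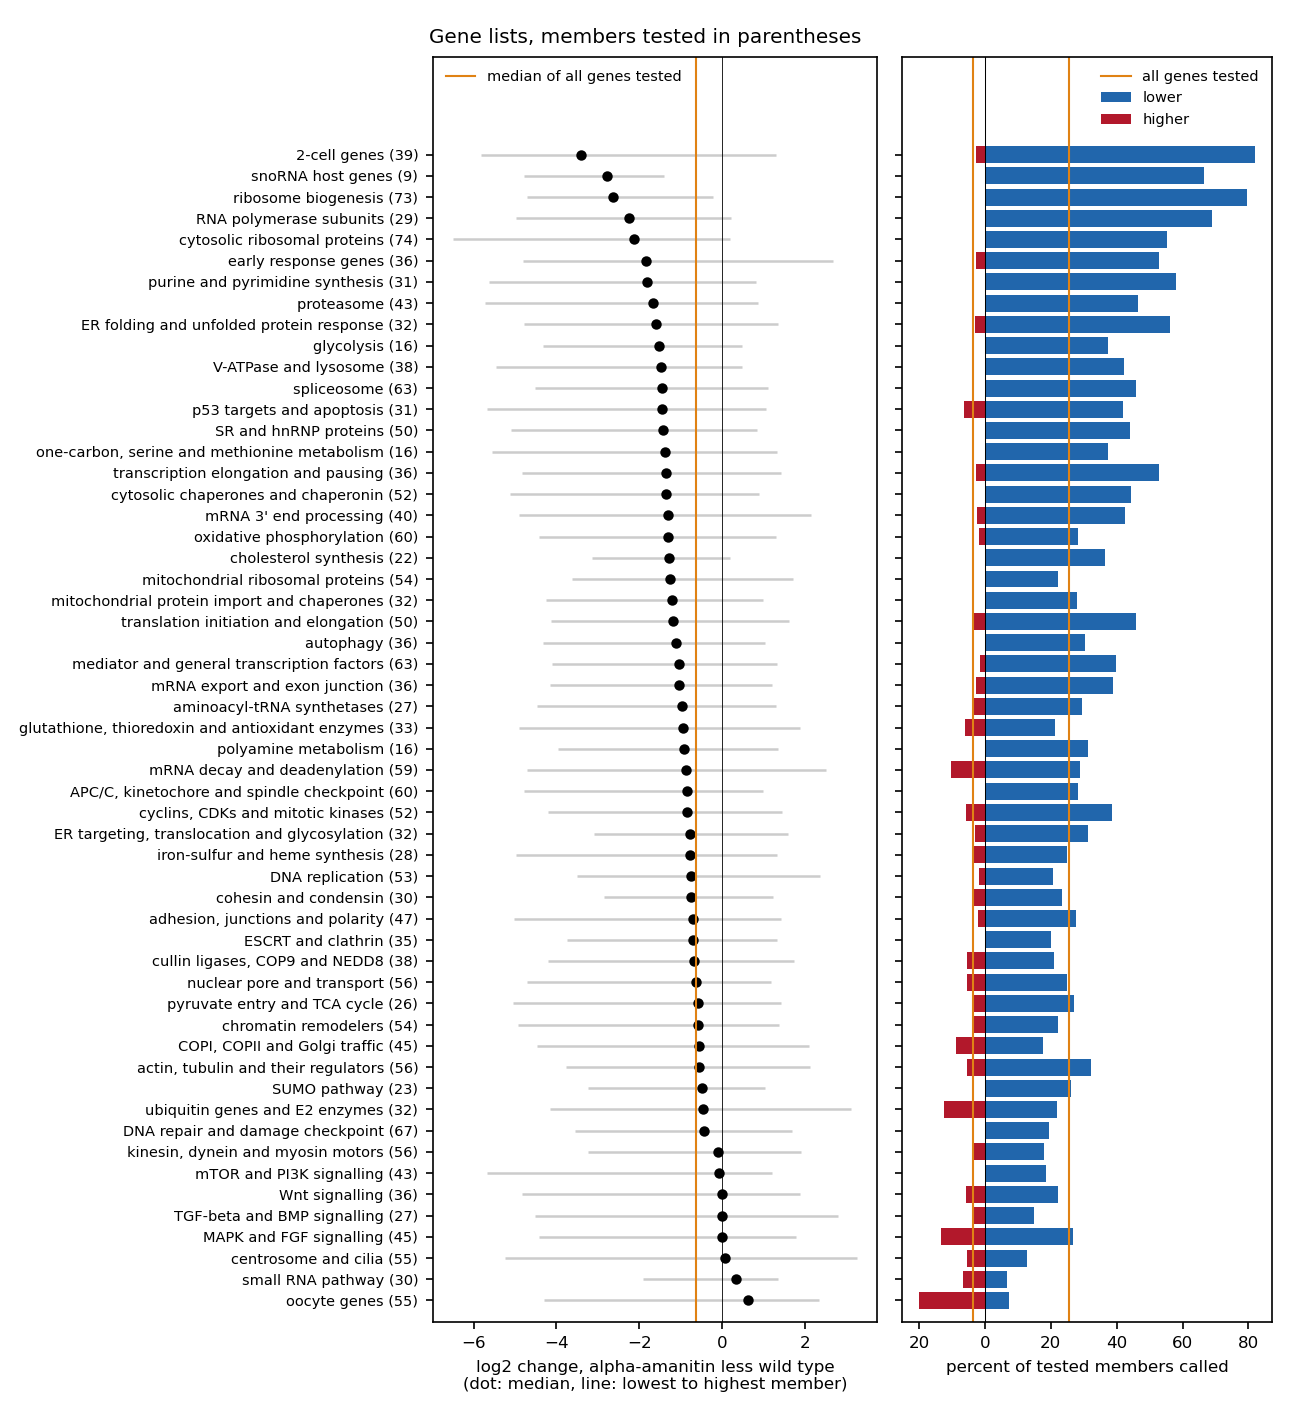
Gene lists ordered by median log2 change. Left, the median (dot) and the range over tested members (line), with the -0.62 of all tested genes in orange; right, percent of tested members called lower (blue, to the right of 0) and higher (red, to the left of 0), with the 25.4% and 3.71% of all tested genes in orange. Ribosome biogenesis, snoRNA hosts and RNA polymerase subunits stand at the top next to the 2-cell genes, and signalling, cilia, small RNA and oocyte lists at the bottom.

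In energy metabolism most members of each list were not called. Of 16 glycolysis genes 6 were lower and none higher, with a median of -1.53. Pkm, the last enzyme of the pathway, fell from 27, 28.6 and 32.7 FPKM to 1.15 and 0.0724 FPKM (log2 change -4.32, SE 0.46, limma adjusted p = 0.000652). Ldha, which interconverts pyruvate and lactate, fell from 14, 9.77 and 7.05 FPKM to 0.167 FPKM in 1 treated library and a listed 0 in the other (log2 change -3.34, SE 0.51, limma adjusted p = 0.00281), and Slc16a1, a transporter of both, fell from 19.5, 13.6 and 12.6 FPKM to 0.0253 and 0.114 FPKM (log2 change -3.90, SE 0.47, limma adjusted p = 0.00107). Slc2a3, a glucose transporter, fell from 6.74, 9.08 and 13.1 FPKM to 0.298 and 0.351 FPKM (log2 change -2.96, SE 0.50, limma adjusted p = 0.00439). Of 26 genes of pyruvate entry and the TCA cycle 7 were lower and 1 higher, with a median of -0.59 (0.33 after quantile normalization), and its 26.9% lower is near the 25.4% of all genes. Pdp2, a phosphatase that activates pyruvate dehydrogenase, had 30.2, 30.8 and 35.1 FPKM in the wild-type libraries, and both treated libraries list it at 0 (limma adjusted p = 0.000347). Mpc2, of the mitochondrial pyruvate carrier, fell from 35.3, 43.5 and 45.5 FPKM to 2.36 and 0.487 FPKM (log2 change -4.24, SE 0.46, limma adjusted p = 0.000693). Of 60 nuclear genes of oxidative phosphorylation 17 were lower and 1 higher (median -1.30), the higher one being Cox8a, a subunit of cytochrome c oxidase, which rose from 74.7, 65 and 96.9 FPKM to 171 and 216 FPKM (log2 change 1.29, SE 0.26, limma adjusted p = 0.00844) and was called in 4 of the 5 fits. The lower count of that list was 10 or 11 without wild-type replicate 2 or 3 or either alpha-amanitin library. In the main fit the lower share of oxidative phosphorylation genes was 28.3%, near the 25.4% of all genes. Of 54 mitochondrial ribosomal proteins 12 were lower (22.2%, under the 25.4% of all genes) and none higher, with a median of -1.25.

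Genes that supply nucleotides, methyl groups and polyamines were lower where called, as were 87.3% of all calls. The lower shares were 58.1% for purine and pyrimidine synthesis and 37.5% for one-carbon, serine and methionine metabolism. They were 31.25% for polyamine metabolism and 36.4% for cholesterol synthesis, against 25.4% of all genes. Of 31 genes of purine and pyrimidine synthesis 18 were lower and none higher, with a median of -1.82. Prps1, which makes the ribose phosphate donor of both routes, fell from 50.8, 60.8 and 63.7 FPKM to 0.945 FPKM in 1 treated library and a listed 0 in the other (log2 change -5.41, SE 0.42, limma adjusted p = 0.000343). Cad, which carries out the opening steps of pyrimidine synthesis, fell from 11.3, 23.1 and 26.6 FPKM to 0.1 FPKM in 1 treated library and a listed 0 in the other (log2 change -4.26, SE 0.52, limma adjusted p = 0.00112). The count dropped to 11 if alpha-amanitin replicate 1 was left out and to 8 if replicate 2 was. Of 16 genes of one-carbon, serine and methionine metabolism 6 were lower and none higher (median -1.37). Psat1, of serine synthesis, fell from 49.4, 105 and 140.1 FPKM to 1.66 and 0.418 FPKM (log2 change -5.55, SE 0.52, limma adjusted p = 0.000488). Gcsh, of the glycine cleavage system, fell from 121, 219 and 172 FPKM to 2.76 and 3.08 FPKM (log2 change -5.41, SE 0.34, limma adjusted p = 0.000295). Mat2a, which makes the methyl donor S-adenosylmethionine, fell from 51.8, 48.1 and 56.7 FPKM to 0.6 and 2.98 FPKM (log2 change -4.40, SE 0.46, limma adjusted p = 0.000627). Odc1, the entry enzyme of polyamine synthesis, fell from 51.5, 80 and 87.1 FPKM to 1.29 and 8.26 FPKM (log2 change -3.97, SE 0.58, limma adjusted p = 0.00245). Of 22 genes of cholesterol synthesis 8 were lower, and 2 to 5 with any 1 library left out; Sqle, squalene epoxidase, fell from 113, 97.3 and 91.4 FPKM to 7.91 and 13.7 FPKM (log2 change -3.15, SE 0.32, limma adjusted p = 0.000571). In the list of 33 antioxidant enzymes 7 were lower and 2 higher (median -0.96), with the lower count at 4 with the omission of wild-type replicate 3 or of alpha-amanitin replicate 2. In the main fit the lower share of antioxidant enzymes was 21.2%, under the 25.4% of all genes, and the higher share 6.06%, against 3.71%. Gpx1, a glutathione peroxidase, fell from 40.2, 94 and 55.7 FPKM to 3.11 FPKM in 1 treated library and a listed 0 in the other (log2 change -4.90, SE 0.64, limma adjusted p = 0.00156). G6pdx, which supplies NADPH, rose from 58.3, 38.1 and 56.7 FPKM to 102 and 152 FPKM (log2 change 1.30, SE 0.31, limma adjusted p = 0.0164) and was called in 4 of the 5 fits.

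Chaperone, proteasome and lysosome lists had larger shares of lower members than all genes, and the lists of traffic and of cullin ligases did not. Of 52 cytosolic chaperones and chaperonin subunits 23 were lower and none higher (median -1.35), and of 32 genes of folding in the endoplasmic reticulum and the unfolded protein response 18 were lower and 1 higher (median -1.60). Dnajb9, a co-chaperone of the reticulum, fell from 62.6, 83.7 and 59.2 FPKM to 2.43 and 0.836 FPKM (log2 change -4.78, SE 0.40, limma adjusted p = 0.000384). Fkbp4, which works with Hsp90, fell from 37.8, 54.5 and 64.7 FPKM to 1.56 and 0.355 FPKM (log2 change -4.81, SE 0.45, limma adjusted p = 0.000464), and Bag3, a partner of Hsp70, fell from 27.3, 37.1 and 28.9 FPKM to 0.569 and 0.504 FPKM (log2 change -4.37, SE 0.40, limma adjusted p = 0.000449). Of 43 proteasome genes 20 were lower and none higher (median -1.68), with 10 without alpha-amanitin replicate 1, 12 without replicate 2 and 13 without wild-type replicate 2. Of 38 genes of the V-ATPase and lysosome 16 were lower and none higher (median -1.49), with 10 without wild-type replicate 3. Ctsl, the protease cathepsin L, fell from 83.6, 175 and 112 FPKM to 3.67 and 6.93 FPKM (log2 change -4.29, SE 0.41, limma adjusted p = 0.0005), and Ctsb, cathepsin B, fell from 25.5, 25.6 and 22.8 FPKM to 0.476 and 1.17 FPKM (log2 change -3.84, SE 0.42, limma adjusted p = 0.000724). Of 45 genes of COPI, COPII and Golgi traffic 8 were lower and 4 higher, with a median of -0.57 (0.31 after quantile normalization) and a lower count of 5 without alpha-amanitin replicate 2. Tmed9, a cargo receptor, fell from 29.2, 30.4 and 28.4 FPKM to 0.902 FPKM in 1 treated library and a listed 0 in the other (log2 change -4.46, SE 0.45, limma adjusted p = 0.000567), whereas Arf3, a GTPase of the Golgi, rose from 92.2, 90.8 and 82.6 FPKM to 277 and 238 FPKM (log2 change 1.53, SE 0.21, limma adjusted p = 0.0017). Among 38 genes of cullin ligases and neddylation (median -0.67, and 0.01 after quantile normalization) 8 were lower and 2 higher. Cul3 fell from 199, 294 and 365 FPKM to 20.9 and 20.3 FPKM (log2 change -3.69, SE 0.29, limma adjusted p = 0.000343), and Klhl13, a substrate adaptor of Cul3, rose from 20.9, 18.7 and 8.2 FPKM to 52.7 and 50.6 FPKM (log2 change 1.73, SE 0.43, limma adjusted p = 0.0207) and was called in 3 of the 5 fits. The lower count was 5 with the omission of any of wild-type replicates 1 and 3 and alpha-amanitin replicate 1.

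Early response genes are those that cells induce quickly after a stimulus without new protein. Of 36 tested members 19 were lower and 1 higher, with a median of -1.84, and without alpha-amanitin replicate 2 there were 11 lower. Pim3, a survival kinase, fell from 27.2, 35.3 and 25.4 FPKM to 0.139 FPKM in 1 treated library and a listed 0 in the other (log2 change -4.81, SE 0.42, limma adjusted p = 0.000422). Zfp36, which promotes decay of AU-rich mRNA, fell from 18.3, 13.8 and 12.2 FPKM to 0.424 and 0.977 FPKM (log2 change -3.22, SE 0.46, limma adjusted p = 0.0022), and Gadd45a, a stress sensor, fell from 15.1, 17.3 and 20.8 FPKM to 0.0596 and 0.873 FPKM (log2 change -3.72, SE 0.48, limma adjusted p = 0.0014). Of 31 p53 targets and apoptosis genes 13 were lower and 2 higher, with a median of -1.46. Bcl2l11, the death-promoting protein Bim, fell from 30.4, 36.4 and 26 FPKM to 3.49 and 1.86 FPKM (log2 change -3.14, SE 0.40, limma adjusted p = 0.00138), and Diablo, a mitochondrial factor released in apoptosis, fell from 26.1, 34.8 and 49.7 FPKM to 3.86 and 2.39 FPKM (log2 change -3.17, SE 0.42, limma adjusted p = 0.00157).

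Medians of the signalling lists lay above the -0.62 of all genes, and above its 0.20 after quantile normalization, while single receptors and inhibitors fell. The medians were -0.08 for 43 genes of mTOR and PI3K signalling, -0.01 for 36 of Wnt, 0.00 for 27 of TGF-beta and BMP, and 0.00 for 45 of MAPK and FGF, and after quantile normalization they were 0.31, 0.56, 0.64 and 0.34. The called members were 8 lower and none higher for mTOR, 8 and 2 for Wnt, 4 and 1 for TGF-beta and 12 and 6 for MAPK. In that order the lower shares were 18.6%, 22.2%, 14.8% and 26.7%, against 25.4% of all genes. The higher shares were 0%, 5.56%, 3.70% and 13.3%, against 3.71% of all genes. Without alpha-amanitin replicate 2 the MAPK counts were 6 and 0. With any 1 library left out the lower mTOR genes numbered 3 to 5, and without wild-type replicate 2 there were 5 lower Wnt genes. Fzd7, a Wnt receptor, fell from 64.1, 51.8 and 54.2 FPKM to 0.257 and 2.27 FPKM (log2 change -4.83, SE 0.47, limma adjusted p = 0.000529), as did Fzd4, another, which fell from 15.4, 27.4 and 21.8 FPKM to 0.0885 and 0.0894 FPKM (log2 change -4.34, SE 0.46, limma adjusted p = 0.000674). Smad7, the inhibitor of TGF-beta receptors, had 24.5, 15.4 and 27.9 FPKM in the wild-type libraries, and of the treated libraries 1 had 0.0022 FPKM and the other lists it at 0 (limma adjusted p = 0.000627). Map2k2, a MAP kinase kinase, fell from 9.46, 9.34 and 7.79 FPKM to 0.0167 and 0.147 FPKM (log2 change -3.19, SE 0.47, limma adjusted p = 0.00249). On the other side, Lef1, a nuclear effector of Wnt signalling, rose from 3.74, 4.95 and 7.98 FPKM to 16.9 and 28.9 FPKM (log2 change 1.87, SE 0.46, limma adjusted p = 0.0202), with a call in 2 of the 5 fits.

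Of 52 cyclins, CDKs and mitotic kinases 20 were lower and 3 higher, with a median of -0.85 (-0.02 after quantile normalization). Ccne1, cyclin E1 of S phase entry, fell from 62.9, 49.6 and 65.7 FPKM to 1.75 and 3.04 FPKM (log2 change -4.17, SE 0.36, limma adjusted p = 0.000403). Its partner Cdk2 fell from 14.6, 18.1 and 16.1 FPKM to 0.504 and 0.0393 FPKM (log2 change -3.78, SE 0.46, limma adjusted p = 0.0011), and the cell cycle repressor E2f7 fell from 20, 17.1 and 23.3 FPKM to 0.00445 and 0.282 FPKM (log2 change -4.21, SE 0.44, limma adjusted p = 0.000652). Cdc25c, a phosphatase that activates CDK1, fell from 20.2, 21.1 and 23.5 FPKM to 0.528 and 0.0226 FPKM (log2 change -4.17, SE 0.44, limma adjusted p = 0.000652), whereas Wee2, the oocyte kinase that inhibits CDK1, rose from 240.2, 213 and 143 FPKM to 451 and 420.0 FPKM (log2 change 1.16, SE 0.24, limma adjusted p = 0.0108) and was called in 3 of the 5 fits. Of 60 genes of the anaphase-promoting complex, kinetochore and spindle checkpoint 17 were lower (28.3%, near the 25.4% of all genes) and none higher (median -0.86). Fbxo5, an inhibitor of that complex, fell from 51.5, 34.2 and 73.1 FPKM to 0.868 and 0.907 FPKM (log2 change -4.77, SE 0.43, limma adjusted p = 0.00043), and Cdc20, an activator, fell from 39.4, 22.4 and 39.7 FPKM to 1.41 and 0.658 FPKM (log2 change -4.08, SE 0.45, limma adjusted p = 0.000739). Genes of DNA replication and repair were called lower at rates under the 25.4% of all genes. Of 53 replication genes 11 were lower (20.8%) and 1 higher, with 7 lower with the omission of any of wild-type replicates 2 and 3 and alpha-amanitin replicate 1. Of 67 genes of repair and damage checkpoints 13 were lower (19.4%) and none higher, with 5 with the omission of wild-type replicate 3 or of alpha-amanitin replicate 2, and their median of -0.44 was 0.35 after quantile normalization. Gmnn, geminin, which prevents a second round of replication, fell from 57.7, 61.8 and 48.3 FPKM to 6.16 and 9.59 FPKM (log2 change -2.70, SE 0.33, limma adjusted p = 0.00118). Top2a, topoisomerase II alpha, fell from 22.3, 26.4 and 29.9 FPKM to 5.4 and 1.32 FPKM (log2 change -2.81, SE 0.50, limma adjusted p = 0.00556).

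The medians of the cytoskeleton, adhesion and nuclear pore lists lay near or above the -0.62 of all genes. After quantile normalization those of the actin and tubulin and the nuclear pore lists lay under the 0.20 of all genes. In the actin and tubulin list 32.1% were lower, above the 25.4% of all genes, and 5.36% higher, against 3.71%. Of 56 actin and tubulin genes and regulators 18 were lower and 3 higher (median -0.57, and 0.09 after quantile normalization), and 8 to 10 were lower without wild-type replicate 2 or 3 or either alpha-amanitin library. Tubb4b, a beta-tubulin, fell from 43.8, 90.6 and 82.3 FPKM to 2.77 and 7.36 FPKM (log2 change -3.64, SE 0.47, limma adjusted p = 0.00152), whereas Mapre2, which binds growing microtubule ends, rose from 49.9, 43.3 and 39.3 FPKM to 139.7 and 126 FPKM (log2 change 1.57, SE 0.25, limma adjusted p = 0.0032). Of 56 kinesins, dyneins and myosins 10 were lower and 2 higher, with a median of -0.10 (0.61 after quantile normalization), and 4 and 6 were lower without alpha-amanitin replicates 1 and 2. Dynll1, a light chain of dynein, fell from 156, 216 and 172 FPKM to 14.8 and 23.5 FPKM (log2 change -3.20, SE 0.29, limma adjusted p = 0.000449). Of 55 centrosome and cilium genes 7 were lower (12.7%) and 3 higher, with a median of 0.08. That lower share and the 17.9% of kinesins, dyneins and myosins lay under the 25.4% of all genes. Ift20, of intraflagellar transport, fell from 59.7, 129 and 101 FPKM to 0.615 and 2.8 FPKM (log2 change -5.23, SE 0.49, limma adjusted p = 0.000498), while Poc1b, of the centriole and not in that list, rose from 10.6, 4.83 and 14.6 FPKM to 76.2 and 74.2 FPKM (log2 change 2.90, SE 0.46, limma adjusted p = 0.00321). Of 47 genes of adhesion, junctions and polarity 13 were lower (27.7%, near the 25.4% of all genes) and 1 higher (median -0.71, and 0.26 after quantile normalization), with 8 lower without alpha-amanitin replicate 2. Epcam, an adhesion protein of epithelia, fell from 19.4, 58.5 and 31.4 FPKM to 0.108 FPKM in 1 treated library and a listed 0 in the other (log2 change -5.01, SE 0.53, limma adjusted p = 0.000671). Of 56 genes of nuclear pore and transport 14 were lower (25.0%) and 3 higher (median -0.63, and 0.11 after quantile normalization), as in all genes (25.4% lower, median -0.62). Tnpo3, which imports SR proteins, fell from 48, 26.5 and 26.4 FPKM to 0.173 and 0.362 FPKM (log2 change -4.72, SE 0.45, limma adjusted p = 0.000502). Nup214, of the cytoplasmic face of the pore, rose from 251, 331 and 266 FPKM to 556 and 531 FPKM (log2 change 0.95, SE 0.18, limma adjusted p = 0.00739) and was called in 3 of the 5 fits, but not after quantile normalization (change 0.50, limma adjusted p = 0.0593).

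Counted over lists, 34 of the 52 lists beyond the 3 reference lists had a larger share of lower members than the 25.4% of all genes, and 15 a larger share of higher members than the 3.71%. These positions depend on the settings, since 21 of 55 lists, with the reference lists, crossed the median of all genes under at least 1 alternative. The lower share also varied with level, being 12.2% of genes averaging under 3 FPKM over the 5 libraries and 36.7% at 10 to 30 FPKM. Median wild-type levels were 27.4 FPKM in SR and hnRNP proteins, 14.4 FPKM in the Mediator list and 4.89 FPKM in oxidative phosphorylation. Over all tested genes that median was 6.53 FPKM. The lists were not matched for level, and how far level accounts for their shares was not tested. In 21 lists no member was higher. In lists with 2 to 4 higher members, 0 to 4 were higher with any 1 library left out. Of the lists not yet given, 9 of 32 genes of mitochondrial import (5 to 9 with any 1 library left out), 10 of 32 of targeting to the endoplasmic reticulum (6 to 10), 11 of 36 of autophagy (6 to 8), 8 of 27 tRNA synthetases (4 to 8) and 5 of 16 of polyamine metabolism (4 to 6) were lower. So were 7 of 35 ESCRT and clathrin genes (3 to 6), 6 of 23 of the SUMO pathway (2 to 5), 7 of 32 ubiquitin and E2 genes (4 to 6), 7 of 30 of cohesin and condensin (2 to 6) and 7 of 28 of iron-sulfur and heme synthesis (3 to 5). Among these the E2 list alone had over 1 higher member, with 4 (12.5%, against 3.71% of all genes). Against 25.4% of all genes, lower shares were 28.1% for import, 31.25% for targeting, 30.6% for autophagy, 29.6% for synthetases and 31.25% for polyamines. They were 20% for ESCRT and clathrin, 26.1% for SUMO, 21.9% for E2, 23.3% for cohesin and condensin and 25% for iron-sulfur and heme. The latter lay near or under the share of all genes. Genes were also grouped by the letters of the symbol alone. Of 95 symbol families with at least 12 tested genes, 1 had more higher than lower members, the Nlrp genes, with 2 higher and 0 lower of 14 and a median of 0.76. Of these 2, Nlrp4e was called in all 5 fits with 1 library left out and Nlrp9a in 1. The Gtf family, the general transcription factors, had 13 of 21 lower and a median of -1.88, and the Ddx family of RNA helicases 18 of 35 lower and -1.63. Phosphodiesterases of the Pde family had none of 13 called and a median of 0.32, and the 36 Hist genes 3 lower and 1 higher and a median of 0.07. Histone genes are near-identical copies, so reads could be split among them.

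Some genes with large rises started from low levels (Il12rb2, Stard3nl and Tox2) and others did not (Nr2e1 and Nlrp4e). Il12rb2, a subunit of the interleukin-12 receptor, rose from 3, 1.58 and 2.09 FPKM to 22.3 and 25.3 FPKM (log2 change 2.96, SE 0.44, limma adjusted p = 0.00261). Stard3nl, a protein of late endosomes, rose from 2.68, 2 and 2.35 FPKM to 20.7 and 24.2 FPKM (log2 change 2.81, SE 0.42, limma adjusted p = 0.00268). Nr2e1, an orphan nuclear receptor, rose from 31.2, 12.5 and 10.7 FPKM to 107 and 98.1 FPKM (log2 change 2.59, SE 0.46, limma adjusted p = 0.00526). Tox2, an HMG-box protein, rose from 2.18, 1.54 and 0.406 FPKM to 14.1 and 16.3 FPKM (log2 change 2.85, SE 0.53, limma adjusted p = 0.00669) and was called in 4 of the 5 fits. In Nlrp4e, an NLR family gene of the oocyte, the level rose from 46.9, 39.2 and 22.3 FPKM to 145 and 177 FPKM (log2 change 2.18, SE 0.35, limma adjusted p = 0.00351). The 4 libraries of injected embryos stood at 1.64 to 3.32 FPKM in Il12rb2, near wild type. They stood at 5.21 to 13.8 FPKM in Stard3nl, above every wild-type library and below both alpha-amanitin libraries, and at 12.7 to 59.5 FPKM in Poc1b.

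**Figure D4:**
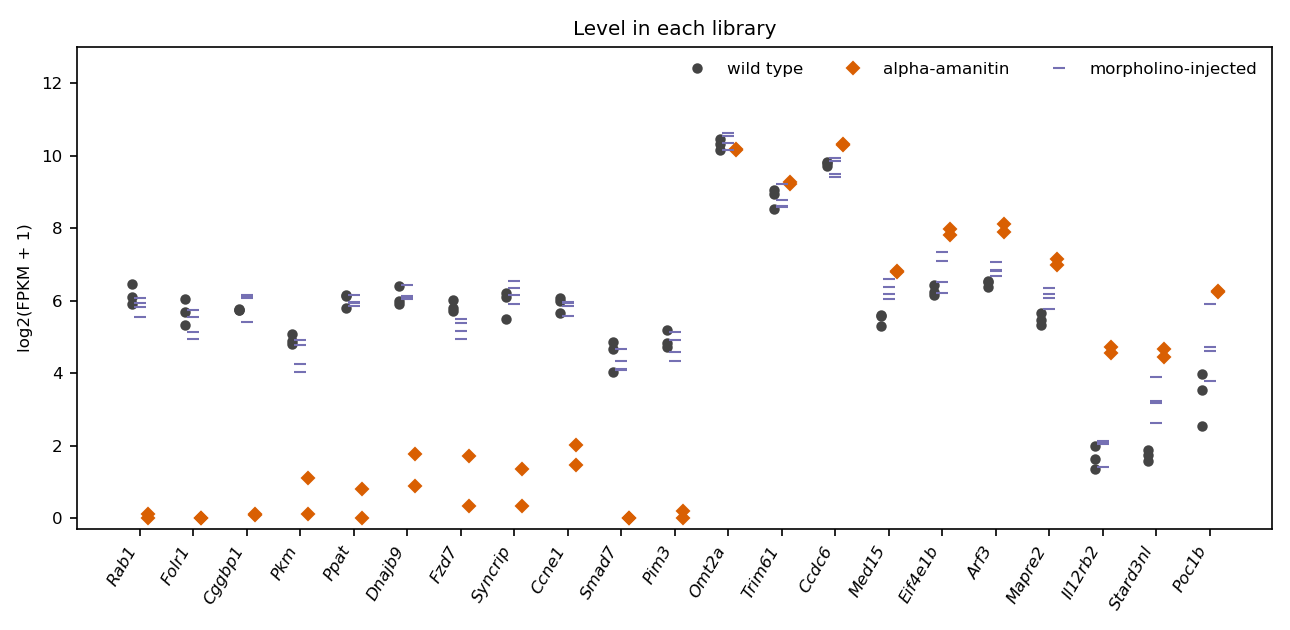
Level of 21 genes in every library as log2(FPKM + 1): wild type (dark circles, 3), alpha-amanitin (orange diamonds, 2) and morpholino-injected embryos (violet dashes, 2 mismatch control and 2 Kdm5a+b). From Rab1 to Pim3 the treated libraries lie far under all others, from Omt2a to Ccdc6 the groups lie close together, and from Med15 to Poc1b the treated libraries lie above wild type.

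Some of the most abundant transcripts moved little by comparison, although Ccdc6 among them was called higher. Omt2a, an oocyte gene, had 1148, 1397 and 1275 FPKM in the wild-type libraries against 1160.2 and 1134 FPKM in the treated ones, a log2 change of -0.15 whose 95% interval runs from -0.45 to 0.16. Trim61, of the tripartite motif family, had 535, 494 and 366 FPKM against 616 and 593 FPKM, a change of 0.40 (interval -0.05 to 0.85). The groups overlapped in Omt2a, whose copy Omt2b may share its reads, and did not overlap in Trim61. Ccdc6, a coiled-coil protein, rose from 894, 839.6 and 914 FPKM to 1254 and 1285 FPKM (log2 change 0.52, SE 0.12, limma adjusted p = 0.0168) and was called in 3 of the 5 fits, but not after quantile normalization (change 0.25, limma adjusted p = 0.194). The 95% interval of its change ran from 0.24 to 0.81. The largest value of all belonged to a transcript listed as Yam1, with 15754, 6941 and 14841 FPKM in the wild-type libraries against 8459.9 and 12166 FPKM in the treated ones, or 2.99% to 7.21% and 4.28% and 5.79% of the summed FPKM. All 1831 bases of it at chr17:39846958-39848788 lie inside a locus that GENCODE M21 annotates as ribosomal RNA on the opposite strand, and strand use in the counting is not stated, so its level may not be that of a separate gene.

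Non-coding transcripts were tested with the rest. Of 758 tested processed pseudogenes 32.5% were lower and 1.06% higher, and of 58 unprocessed ones 46.6% were lower. Lower shares were 22.6% of 155 lincRNAs and 17.4% of 190 antisense transcripts, and 10.3% of the lincRNAs were higher against 3.76% of 10100 protein-coding genes. Median wild-type levels were 3.56 FPKM in lincRNAs, 2.32 FPKM in antisense transcripts and 6.79 FPKM in protein-coding genes. How far level accounts for these shares was not tested. Gm12622, a processed pseudogene at chr11:60560924-60561305, had 86.6, 86.1 and 94 FPKM in the wild-type libraries, and both treated libraries list it at 0 (limma adjusted p = 0.000176). Pseudogenes can share reads with their parent genes, so these levels are uncertain. Gm11583, annotated as antisense, was at most 5.61e-06 FPKM in any wild-type library against 26.2 and 22.8 FPKM in the treated ones (limma adjusted p = 0.000567), the largest rise of all. All 686 bases of it (chr11:97160990-97161675) lie within Kpnb1 on the opposite strand, which encodes importin beta and went from 53.1, 41.6 and 41.6 to 14.1 and 17.4 FPKM (limma adjusted p = 0.0104). Likewise Gm16096 (chr9:40780742-40784181), which rose from 1.59, 0.558 and 1.64 FPKM to 26.6 and 10.1 FPKM (log2 change 2.99, SE 0.58, limma adjusted p = 0.00755) and was called in 4 of the 5 fits, lies inside Clmp on the opposite strand, which went from 5.12, 3.31 and 21.7 to 0.00259 and 1.03 FPKM (limma adjusted p = 0.0416). Reads of such pairs cannot be told apart without strand.

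Direction also varied with the length of the gene in the genome. The median span from start to end was 15.1 kb for lower protein-coding genes, 41.1 kb for higher ones and 28.9 kb for those not called. Of 570 genes spanning under 3 kb 38.4% were lower and 3.33% higher, with a median log2 change of -1.37. From there the lower share fell through 36.4%, 29.4% and 19.0% at 3 to 10, 10 to 30 and 30 to 100 kb to 6.23% of the 1396 genes of 100 kb or more, where 7.23% were higher and the median was 0.31. A similar order was seen within bands of level, with departures between the 2 shortest bands. At a mean of 10 to 30 FPKM the lower shares from the shortest to the longest were 63.4%, 51.9%, 41.8%, 27.1% and 9.28%, and at 30 to 100 FPKM 43.6%, 50.3%, 36.5%, 15.6% and 1.11%. Quantile normalization left 21.4% lower and 6.14% higher under 3 kb and 2.15% lower and 22.6% higher at 100 kb or more. With 1 library left out the lower share was 23.9% to 35.4% under 3 kb and 3.15% to 4.37% at 100 kb or more. Single-exon genes were lower in 38.0% and genes of 17 exons or more in 15.6%. That difference was not seen at like span. At 3 to 10 kb the shares were 38.3% of 60 single-exon genes and 44.8% of 29 genes of 17 exons or more. At 10 to 30 kb they were 34.0% for 2 exons and 27.6% for 17 or more. Within genes of 17 exons or more the share was 5.09% at 100 kb or more. Chromosomes differed far less, from 20.4% lower on chromosome 6 to 30.2% on chromosome 17, with 28.0% on the X chromosome.

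**Figure D5:**
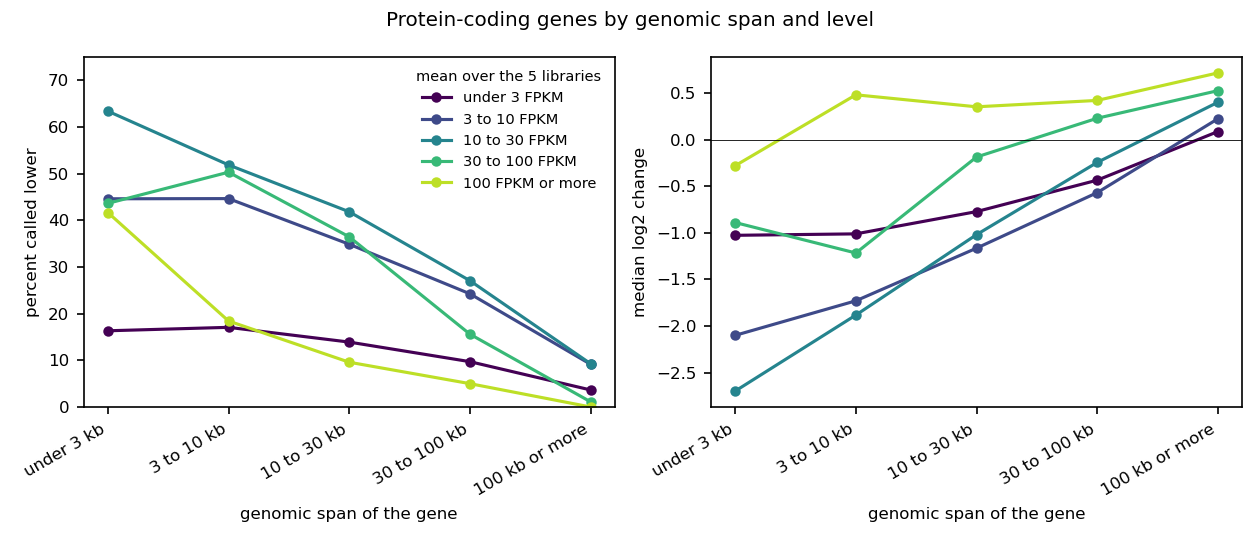
Percent of protein-coding genes called lower (left) and their median log2 change (right) by genomic span, with 1 line for each band of mean FPKM over the 5 libraries. All lines fall from left to right in the left panel apart from rises between the 2 shortest bands, and the band of 100 FPKM or more rests on 12 genes under 3 kb.

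TTTTAT, a form of the element that directs cytoplasmic polyadenylation in oocytes, searched on the sense strand, was found in the 3′ ends of 51.3% of lower genes, 58.2% of higher genes and 56.8% of genes not called, and in 48.8% of all 20039 with an annotated 3′ end. TGTANATA, the Pumilio element, stood in 23.2%, 29.3% and 26.1%. Lower genes had a median 3′ end of 0.871 kb and higher ones of 0.988 kb, and longer windows hold more matches. Within bands of 3′ end length lower genes and genes not called were close, with TTTTAT in 42.3% and 42.1% at 0.3 to 1 kb, 66.9% and 69.9% at 1 to 2 kb and 85.9% and 87.4% at 2 to 4 kb. Higher genes were at 50.8%, 65.7% and 94.1% in those bands.

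The 2 alpha-amanitin libraries disagreed at some genes. Among genes averaging at least 10 FPKM in these libraries, with neither value at 0, the 6 with the largest ratio between them were not called: Taf9, Mettl23, Hist1h2ba, Mars, Txnrd1 and Pcna. Mars, methionyl-tRNA synthetase, had 13.7, 18 and 21.3 FPKM in the wild-type libraries against 0.222 and 21.9 FPKM in the treated ones. Txnrd1, thioredoxin reductase, had 57.1, 13.6 and 24 FPKM against 55.8 and 0.74 FPKM, and Pcna, the replication clamp, 18.6, 18.9 and 28.4 FPKM against 1.34 and 92.6 FPKM. In each gene 1 treated library lay near or above wild type and the other far below it. The log2 changes were -1.80, -1.47 and -0.61, with limma adjusted p of 0.227, 0.414 and 0.752, and without alpha-amanitin replicate 1 those of Mars and Pcna were 0.32 and 2.05, and without replicate 2 that of Txnrd1 was 1.04.

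The libraries of injected embryos, which took no part in the test, lay on the wild-type side. Of the 2931 lower genes 2824 (96.3%) had all 4 injected libraries above both alpha-amanitin libraries, and of 427 higher genes with a value 343 (80.3%) had all 4 below. Over all 11512 tested genes with a value the shares were 39.9% and 13.7%, and the called genes were chosen with the same alpha-amanitin libraries. The median level of the lower genes was 11.9 FPKM in the injected group, 13.2 FPKM in wild type and 0.674 FPKM in the treated libraries. For the higher genes it was 21, 14.9 and 41.1 FPKM, and in 370 of these 427, and in 1825 of the 2931 lower genes, the injected mean lay between the means of wild type and alpha-amanitin. Injection or handling and other differences between collections cannot be told apart in these groups.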

How the data were processed

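RNA from whole embryos was sequenced, and the deposited values are FPKM per gene with bounds and a status, made by the authors with Cufflinks on mm10, per the submitters' processing notes, which also name BWA, Picard, Trimmomatic and SAMtools. The sources used here do not give aligner settings or strand use, and FPKM hold no read depth. Values with status FAIL were set to missing. A gene was kept if 2 or more of the 5 libraries had at least 1 FPKM. The log2(FPKM + 1) values were tested with limma 3.58.1 (R 4.3.3), with group as the only term, a trend in the variance and Benjamini-Hochberg adjustment over all 11522 genes, called at 0.05. Fold changes on this scale understate changes of low genes. An exact two-sided permutation test of 3 against 2 libraries cannot go below 0.1 and was not used.

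Genes given with values came from a rule: the largest changes among protein-coding genes, in each list and in non-coding genes, abundant genes with small changes, and genes at which the alpha-amanitin libraries differ. The members and lists were chosen with earlier results of these data known. Annotation was GENCODE M21, matching 98.1% of gene IDs, and promoters came from RefSeq (GRCm38.p6). Alternatives changed the pseudocount, filter, scaling, variance trend, libraries fitted, handling of FAIL and replicate block. Some genes are not reported here.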

Additional observations from a re-analysis of the deposited data

How the results depend on the processing

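The counts of 2931 lower and 428 higher genes and the median of -0.62 were recomputed under each alternative. Without a filter on low values there were 1062 lower and 111 higher genes with a median of 0, over 32286 genes tested. Quantile normalization gave 1388 and 1205 with a median of 0.20, the opposite sign, since it forces a common distribution. A pseudocount of 0.1 moved the median to -0.90, rescaling to TPM to -0.71 and median-ratio scaling to -0.57. Without the variance trend 280 genes were higher. With 1 library left out the lower count ranged from 1721 to 2432, the higher count from 108 to 283 and the median from -0.69 to -0.61. Leaving out 1 alpha-amanitin library leaves a lone sample that is assumed to vary like the others. FPKM give no depth, so counting error is unknown.

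The replicate block gave 1979 lower and 153 higher genes. Deviations from the group mean, compared across genes, had r of -0.019 and -0.028 between libraries of the same number. With 2 alpha-amanitin libraries their deviations are equal and opposite. These values therefore cannot tell if libraries of the same number share a collection.

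Some genes changed sign. These were Omt2a after rescaling to TPM (0.0061) and Trim61 after quantile normalization (-0.057). With 1 library left out the log2 change ranged from -0.59 to 0.050 for Yam1, from -3.22 to 1.36 for Taf9, from -3.65 to 1.21 for Mettl23, from -1.60 to 3.04 for Hist1h2ba, from -3.99 to 1.04 for Txnrd1 and from -3.27 to 2.05 for Pcna. The log2 change of Mars ranged from -3.91 to 0.32. The sign of Hist1h2ba was negative without wild-type replicate 2 (-0.28) or the second alpha-amanitin library. The cause was not tested.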
